A study of Rattus norvegicus with 15 samples.

Results

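The genes described here are 37 liver endothelial cell genes, a list that covers receptors, adhesion molecules, transcription factors and secreted signals of the vascular lining. They were read from livers of rats given PF-04923503, which the title of the study calls an ACC inhibitor (ACC is read here as acetyl-CoA carboxylase), or its vehicle. Members were found by gene symbol in the annotation of the array, and the probe set with the highest mean over all arrays stood for each gene. Of the 37, 34 had at least 1 probe set under their symbol and 28 passed the filter on low values, among 9540 genes past the same filter and 14217 genes with a symbol. Cdh5, Clec4g and Robo4 had none, and their expression is not analysed here. Cav1, Flt1, Mcam, Nos3, Sox17 and Thbd were too dim for the filter and are given apart, without a call. No member passed through 1 group alone: 27 of the 28 exceeded the median of all values, 6.10 on the log2 scale, in all 15 samples, and Vwf did so in 14.

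The study compared 3 groups of 5 liver samples: PF-04923503 at 30 mg/kg, PF-04923503 at 10 mg/kg, and the vehicle, 0.5% methylcellulose. Every group consisted of male Sprague Dawley rats from Charles River that started at 7 weeks of age, received a high fat diet supplying 59% of energy as fat, and were dosed by gavage each day for 6 weeks. All groups therefore share the diet, and no rats on another diet were compared here. The labels number the samples of a group but do not call each one a separate rat. The spread behind the p-values is that among samples and may be technical. Whole liver was measured, so fewer endothelial cells and less RNA per cell cannot be told apart.

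Liver sinusoids are lined by a specialised endothelium that is pierced by open pores and rests on little basement membrane. Its cells clear waste molecules from portal blood through scavenger receptors such as the stabilins, respond to vascular endothelial growth factor (VEGF) from hepatocytes, and send Wnt and bone morphogenetic protein signals back to hepatocytes. Larger vessels, and sinusoids that lose their pores, carry more of the general endothelial genes such as Vwf.

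Each sample was hybridised to 1 Affymetrix array, and the values are log2 intensities per probe set as the authors deposited them. Array medians lay between 6.08 and 6.12 and correlations between arrays between 0.989 and 0.996. Defining markers of the cell type were present: Pecam1, Stab1 and Stab2 exceeded the overall median in all 15 samples. Differences are treated minus vehicle in mean log2 value, and fold changes are powers of 2 of them. All p-values are from limma fitted to the 9540 genes on all 15 samples, and a gene was called at a Benjamini-Hochberg adjusted p under 0.05.

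Most of the 28 members had lower means in the treated livers, by small amounts, and none was called. At 30 mg/kg 25 of the 28 members were below vehicle in mean, where 62% of all genes were, and the median log2 difference was -0.12, beside -0.03 over all 9540 genes. For both doses averaged it was 25 of 28, beside 60.3% of all genes. At 10 mg/kg 26 of 28 were below vehicle, where 58.2% of all genes were, with a median of -0.18 beside -0.02. Single differences ran from -0.38 (Stab1) to 0.33 (Gata4) at 30 mg/kg and from -0.39 (Icam1) to 0.17 (Gata4) at 10 mg/kg. The doses share the vehicle samples, so their differences from vehicle are not independent. The members were chosen with earlier results of these data known and were read from the same samples. Their counts are thus a description and not a test.

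The count of calls by limma was 0 of 28 members at 30 mg/kg, where 0 of 9540 genes (0%) were called, and 0 of 28 at 10 mg/kg, where 10 genes (0.105%) were. With both doses averaged against vehicle it was 0 of 28, where 14 genes (0.147%) were called, and the lowest adjusted p of a member (limma) was 0.0847, for Pecam1. An unadjusted p under 0.05 was reached by 7 members with lower and 2 with higher means at 30 mg/kg, where 10.8% and 5.27% of all genes were in these classes (16.1% in either). At 10 mg/kg it was reached by 7 members, all with lower means, which is 25% of the 28 beside 8.79% of all genes (13.3% in either direction). For both doses averaged it was 9 with lower and 1 with higher means, 32.1% and 3.57% of the members beside 12.4% and 5.3% of all genes (17.7% in either). The samples did not overlap with vehicle in 2 members at each dose. At 30 mg/kg 1 was lower and 1 higher, where 3.21% of genes did not overlap (2.36% lower and 0.849% higher). At 10 mg/kg 2 were lower, where 2.44% of genes did not overlap (1.47% lower).

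**Figure D1:**
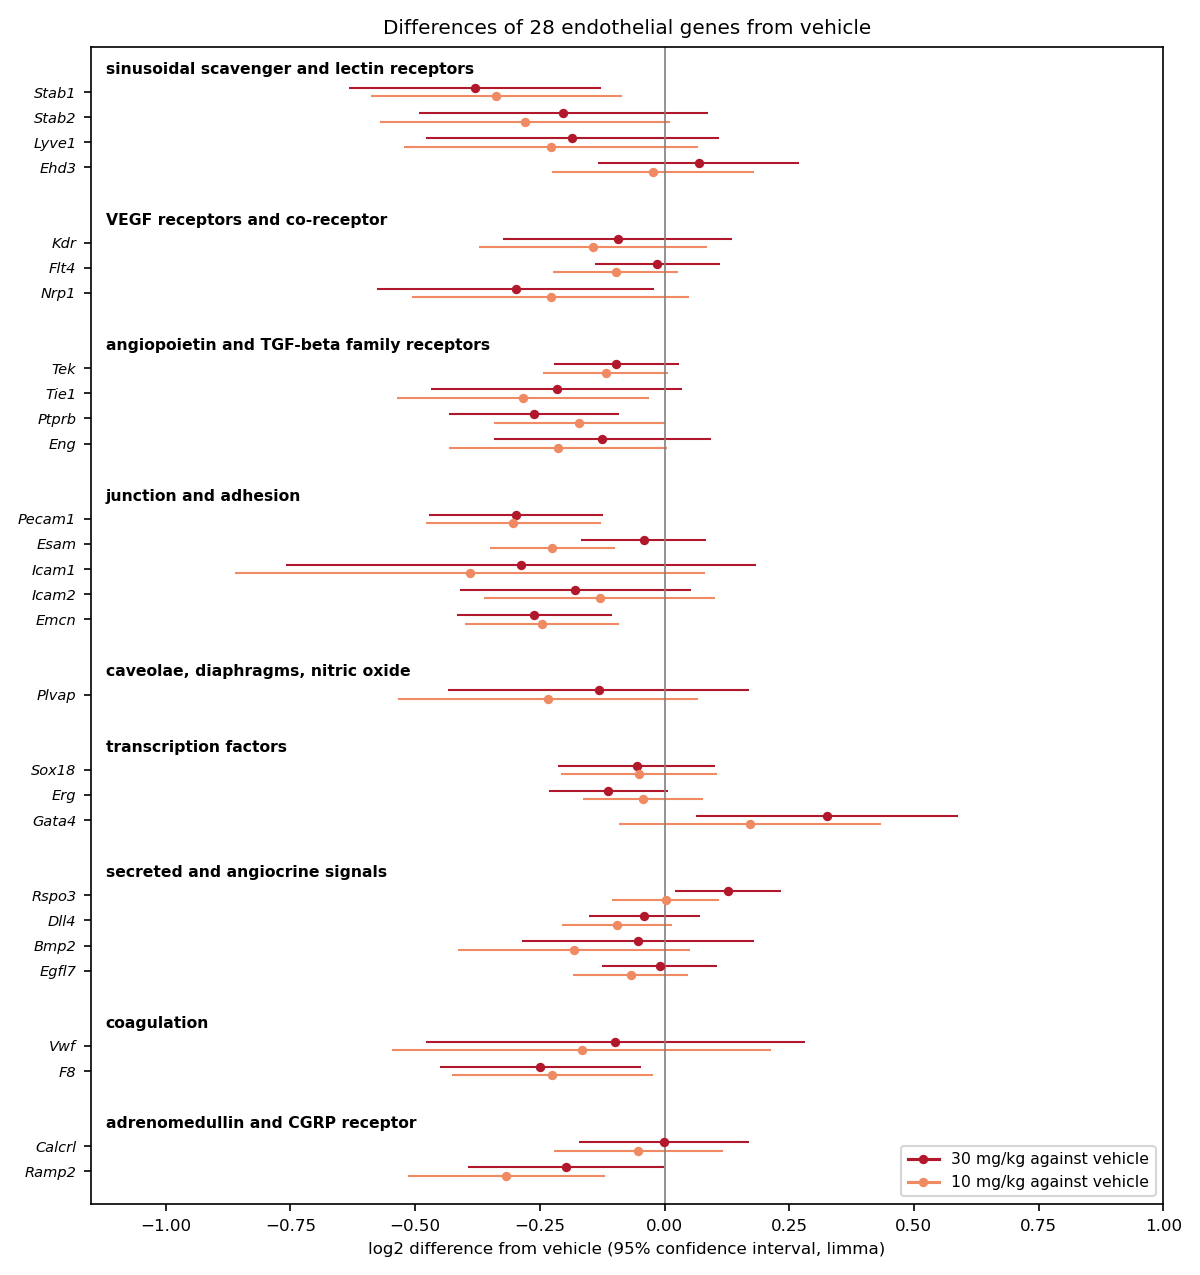
Log2 difference from vehicle (x axis, with 95% confidence intervals from limma) of the 28 members past the filter, by role, with 30 mg/kg in dark red above 10 mg/kg in orange. Most points lie left of 0, Gata4 lies right of 0 at both doses, and many intervals cross 0.

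The scavenger receptors of the sinusoid had some of the larger differences. Stab1 encodes stabilin-1, a receptor that takes up modified lipoproteins and matrix fragments. Its log2 values were 7.62, 7.25, 7.26, 7.45 and 7.65 at 30 mg/kg, 7.70, 7.44, 7.62, 7.53 and 7.14 at 10 mg/kg, and 7.60, 8.0, 7.79, 8.05 and 7.70 in vehicle. The treated samples lay low, and vehicle sample 1 fell within their range, so the groups overlapped. Stab1 stood at 0.77-fold the vehicle level at 30 mg/kg (95% confidence interval 0.65 to 0.92, limma adjusted p = 0.174) and at 0.79-fold at 10 mg/kg (0.66 to 0.94, adjusted p = 0.262).

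Stab2, for stabilin-2, the hyaluronan clearance receptor, had 9.06, 8.41, 8.84, 9.10 and 9.04 at 30 mg/kg, 9.02, 8.67, 9.10, 8.69 and 8.58 at 10 mg/kg, and 9.04, 9.13, 9.06, 9.34 and 8.89 in vehicle. Sample 2 at 30 mg/kg was the lowest of all 15, and the groups overlapped. The difference was -0.20 at 30 mg/kg (limma adjusted p = 0.481), and -0.08 without that sample. At 10 mg/kg it was -0.28 (limma adjusted p = 0.393). Lyve1, a hyaluronan receptor of sinusoids and lymphatics, averaged 10.25 ± 0.21 at 30 mg/kg, 10.20 ± 0.26 at 10 mg/kg and 10.43 ± 0.24 in vehicle (n = 5 each, ± SD). Ehd3, an endocytic recycling protein, averaged 7.62 ± 0.22, 7.53 ± 0.09 and 7.55 ± 0.14 in the same order, and thus differed from vehicle by less than its SD in each comparison.

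Of the VEGF receptors, Kdr, which carries most VEGF signalling in endothelium, averaged 10.34 ± 0.19 at 30 mg/kg, 10.29 ± 0.09 at 10 mg/kg and 10.43 ± 0.24 in vehicle (n = 5 each, ± SD). Flt4, the receptor for VEGF-C, averaged 6.36 ± 0.05, 6.28 ± 0.11 and 6.38 ± 0.09 in the same groups. These differences were within the spread of the vehicle samples or close to it. The co-receptor gene Nrp1, for neuropilin-1, had 7.92, 7.35, 7.28, 7.43 and 7.88 at 30 mg/kg, 7.88, 7.38, 7.71, 7.78 and 7.47 at 10 mg/kg, and 7.79, 8.02, 7.75, 7.95 and 7.85 in vehicle. At 30 mg/kg 3 samples lay below every vehicle sample and the other two within the vehicle range. Nrp1 was at 0.81-fold the vehicle level at 30 mg/kg (0.67 to 0.99, limma adjusted p = 0.279) and at 0.85-fold at 10 mg/kg (0.70 to 1.04, adjusted p = 0.474).

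In the angiopoietin system, which keeps vessels quiescent, the orphan receptor gene Tie1 had 7.07, 7.00, 6.87, 7.03 and 7.12 at 30 mg/kg, 7.23, 6.79, 7.22, 7.04 and 6.47 at 10 mg/kg, and 7.19, 7.38, 7.11, 7.25 and 7.25 in vehicle. The 30 mg/kg samples reached just into the vehicle range, and the 10 mg/kg samples were spread most. Its differences were -0.22 at 30 mg/kg (limma adjusted p = 0.379) and -0.28 at 10 mg/kg (adjusted p = 0.324). Without 10 mg/kg sample 5, the difference at 10 mg/kg was -0.16.

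Ptprb encodes the endothelial phosphatase that restrains the angiopoietin receptor. Its values were 9.60, 9.45, 9.38, 9.37 and 9.65 at 30 mg/kg, 9.71, 9.41, 9.75, 9.52 and 9.51 at 10 mg/kg, and 9.91, 9.82, 9.59, 9.71 and 9.74 in vehicle. At 30 mg/kg 3 samples lay below every vehicle sample, for a fold of 0.83 (0.74 to 0.94, limma adjusted p = 0.172). At 10 mg/kg it was at 0.89-fold (0.79 to 1.00, limma adjusted p = 0.378). Tek, the angiopoietin receptor itself, was at 0.93-fold and 0.92-fold the vehicle level at 30 and 10 mg/kg. Eng, for endoglin, a co-receptor for TGF-beta and bone morphogenetic proteins, was at 0.92-fold and 0.86-fold.

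Pecam1 and Emcn, among the junction and adhesion genes, had the smallest p for both doses averaged among members past the filter. Pecam1 encodes an adhesion molecule of endothelial cell contacts that platelets and leukocytes carry too. It had 7.21, 7.22, 6.97, 6.94 and 7.30 at 30 mg/kg, 7.17, 7.18, 7.12, 7.16 and 6.98 at 10 mg/kg, and 7.55, 7.53, 7.21, 7.5 and 7.35 in vehicle. All 10 mg/kg samples lay below all vehicle samples, while at 30 mg/kg samples 1, 2 and 5 reached the level of vehicle sample 3. It stood at 0.81-fold the vehicle level at 30 mg/kg (0.72 to 0.92, limma adjusted p = 0.156) and at 0.81-fold at 10 mg/kg (0.72 to 0.91, adjusted p = 0.159). With both doses averaged the fold was 0.81 (0.73 to 0.90), and the adjusted p ran from 0.0646 to 0.191 over the alternatives.

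Emcn encodes endomucin, a sialoglycoprotein of capillary and venous endothelium. Its values were 7.17, 7.02, 6.95, 6.92 and 7.27 at 30 mg/kg, 7.26, 6.96, 7.17, 7.01 and 7.02 at 10 mg/kg, and 7.28, 7.31, 7.40, 7.30 and 7.34 in vehicle. It was the only member past the filter in which all 10 treated samples lay below all 5 vehicle samples. Over all genes 0.608% did not overlap in this way and 0.451% lay lower, and the margin for Emcn was 0.01. The folds were 0.83 (0.75 to 0.93, limma adjusted p = 0.156) at 30 mg/kg and 0.84 (0.76 to 0.94, adjusted p = 0.196) at 10 mg/kg.

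Esam, for a tight junction protein of endothelium and platelets, had the smallest p of any member between the doses. It had 7.73, 7.52, 7.71, 7.61 and 7.58 at 30 mg/kg, 7.37, 7.39, 7.52, 7.58 and 7.38 at 10 mg/kg, and 7.73, 7.67, 7.54, 7.74 and 7.68 in vehicle. The 30 mg/kg samples covered nearly the same range as the vehicle samples, and 4 of 5 samples at 10 mg/kg lay below it. The fold was 0.97 at 30 mg/kg (0.89 to 1.06, limma adjusted p = 0.762) and 0.86 at 10 mg/kg (0.78 to 0.93, adjusted p = 0.148).

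Icam1, the leukocyte adhesion molecule that inflammation induces, had the largest SD among members past the filter at each dose, and Vwf had the largest in vehicle. Icam1 averaged 9.22 ± 0.41 at 30 mg/kg, 9.11 ± 0.44 at 10 mg/kg and 9.5 ± 0.28 in vehicle (n = 5 each, ± SD), and its intervals ran from 0.59 to 1.14 and from 0.55 to 1.06 in fold. Icam2, its constitutive relative, was at 0.88-fold the vehicle level at 30 mg/kg and 0.91-fold at 10 mg/kg. Plvap, which forms the diaphragms that sinusoids mostly lack, averaged 7.77 ± 0.28, 7.67 ± 0.27 and 7.90 ± 0.15 at 30 mg/kg, 10 mg/kg and in vehicle.

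**Figure D2:**
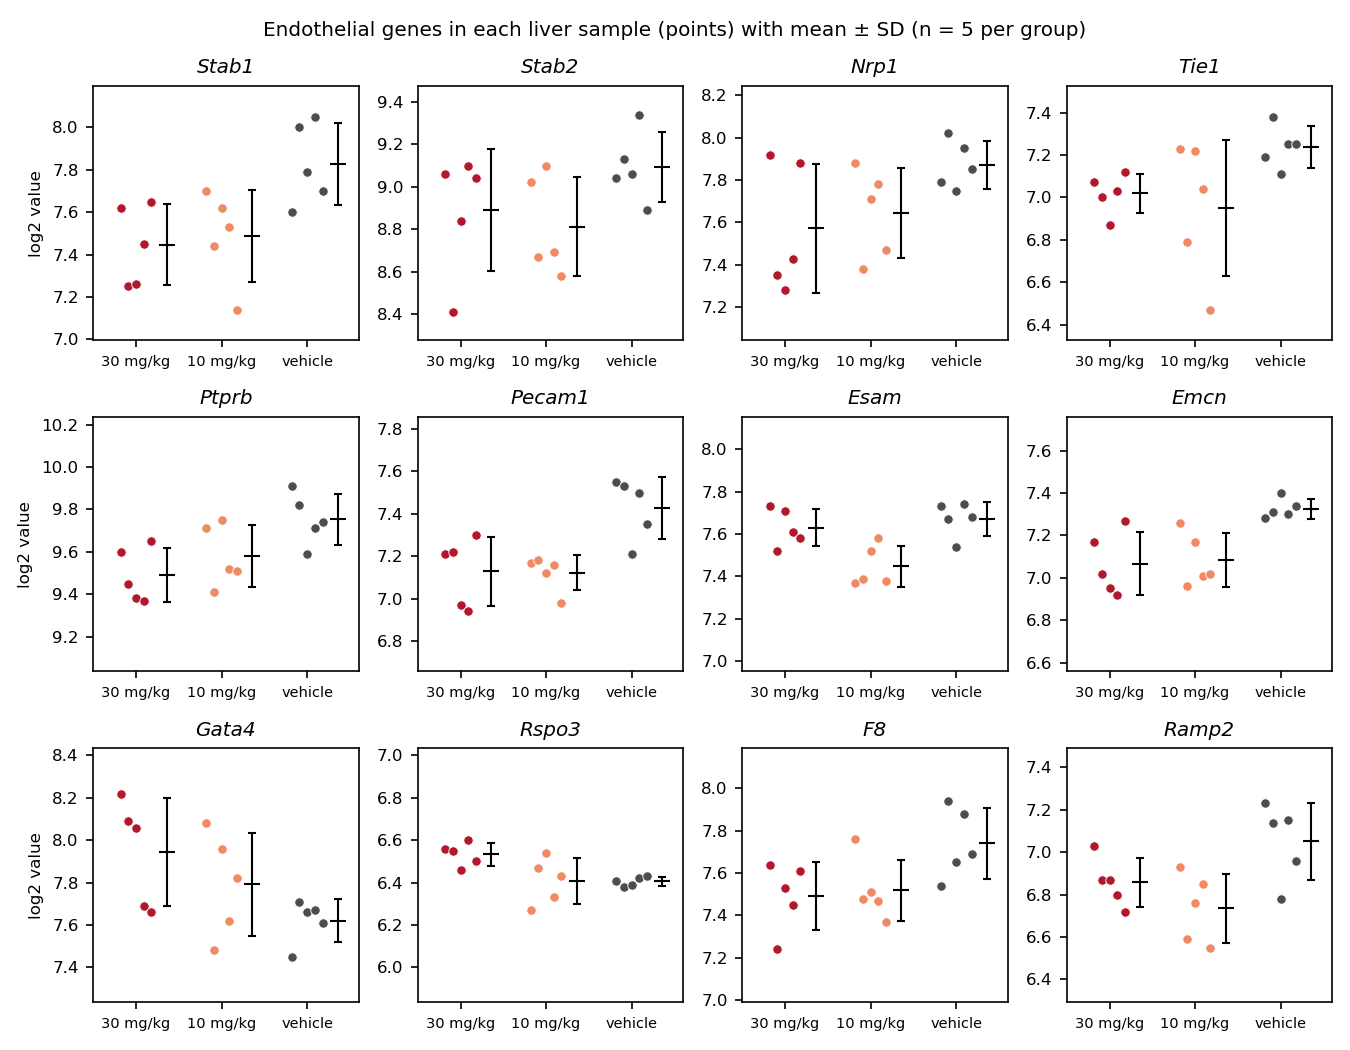
Log2 value (y axis) of 12 members in each sample of the 30 mg/kg, 10 mg/kg and vehicle groups (points), with mean ± SD (n = 5) beside them, each panel spanning the same log2 range. Treated points of Emcn lie below all vehicle points, and those of Gata4 reach above them.

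Gata4 and Rspo3 were the members with higher means at 30 mg/kg and an unadjusted p under 0.05. Gata4 encodes a transcription factor that specifies sinusoidal endothelium in the mouse, and stellate cells express it too. It had 8.22, 8.09, 8.06, 7.69 and 7.66 at 30 mg/kg, 8.08, 7.48, 7.96, 7.62 and 7.82 at 10 mg/kg, and 7.45, 7.71, 7.66, 7.67 and 7.61 in vehicle. At each dose 3 samples lay above every vehicle sample and the other two within the vehicle range. Its fold was 1.25 at 30 mg/kg (1.05 to 1.5, limma adjusted p = 0.226) and 1.13 at 10 mg/kg (0.94 to 1.35, adjusted p = 0.577). Its dimmer probe set, below the filter, gave log2 differences of 0.03 and 0.06.

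Rspo3 encodes R-spondin 3, which amplifies Wnt signals around central veins. It had 6.56, 6.55, 6.46, 6.60 and 6.50 at 30 mg/kg, 6.27, 6.47, 6.54, 6.33 and 6.43 at 10 mg/kg, and 6.41, 6.38, 6.39, 6.42 and 6.43 in vehicle. The 30 mg/kg samples lay above all vehicle samples, as 0.849% of genes did, by 0.03 at the nearest points, and the 10 mg/kg samples lay on both sides. The vehicle SD of 0.02 was the smallest of any member. Its fold was 1.09 at 30 mg/kg (1.01 to 1.18, limma adjusted p = 0.239) and 1.00 at 10 mg/kg (0.93 to 1.08, adjusted p = 0.990). Its other probe set gave 0.03 on the log2 scale at each dose.

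The other transcription factors and signals differed little. Erg, an ETS factor that maintains endothelial identity, was at 0.92-fold the vehicle level at 30 mg/kg and 0.97-fold at 10 mg/kg, and Sox18, a vascular SOX factor, at 0.96-fold and 0.97-fold. Among secreted or surface signals, Bmp2, which induces hepcidin in hepatocytes, was at 0.96-fold and 0.88-fold, the Notch ligand gene Dll4 at 0.97-fold and 0.94-fold, and Egfl7, a matrix-bound vascular factor, at 0.99-fold and 0.95-fold. All of these had a limma adjusted p above that of Gata4 at 30 mg/kg, and each difference was below 0.2 on the log2 scale.

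The coagulation factor gene F8, for factor VIII, which sinusoidal endothelium supplies to blood, had 7.64, 7.24, 7.53, 7.45 and 7.61 at 30 mg/kg, 7.76, 7.48, 7.51, 7.47 and 7.37 at 10 mg/kg, and 7.54, 7.94, 7.65, 7.88 and 7.69 in vehicle. Apart from 10 mg/kg sample 1, treated samples lay below 4 of the 5 vehicle samples. Its folds were 0.84 (0.73 to 0.97, limma adjusted p = 0.226) at 30 mg/kg and 0.86 (0.74 to 0.98, adjusted p = 0.327) at 10 mg/kg. Its second probe set past the filter gave -0.07 and -0.09 on the log2 scale.

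Vwf, for von Willebrand factor, the carrier of factor VIII, averaged 6.53 ± 0.30 at 30 mg/kg, 6.46 ± 0.15 at 10 mg/kg and 6.63 ± 0.42 in vehicle (n = 5 each, ± SD). Vehicle sample 1 had 7.36, and the others of its group had 6.29 to 6.53. Platelets carry Vwf as well, and that sample also had the highest mean over 3 platelet genes, 8.12 beside 7.30 to 7.86 in the other vehicle samples. The part of platelets in the value was not tested.

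Ramp2 encodes the accessory protein that turns the calcitonin receptor-like receptor, the product of Calcrl, into an adrenomedullin receptor. Ramp2 had 7.03, 6.87, 6.87, 6.80 and 6.72 at 30 mg/kg, 6.93, 6.59, 6.76, 6.85 and 6.55 at 10 mg/kg, and 7.23, 7.14, 6.78, 7.15 and 6.96 in vehicle. Vehicle sample 3 lay among the treated samples, and the other vehicle samples at their upper end or above. The folds were 0.87 (0.76 to 1.00, limma adjusted p = 0.310) at 30 mg/kg and 0.80 (0.70 to 0.92, adjusted p = 0.190) at 10 mg/kg. Calcrl was at 1.00-fold and 0.96-fold.

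By role, 5 of 5 junction and adhesion genes past the filter were below vehicle in mean at both doses, with medians of -0.26 at 30 mg/kg and -0.25 at 10 mg/kg. For 4 scavenger and lectin receptor genes the medians were -0.19 and -0.25, for 4 angiopoietin and TGF-beta family receptor genes -0.17 and -0.19, and for 3 VEGF receptor genes -0.09 and -0.14. The 3 transcription factors had medians of -0.06 and -0.04, and the 4 secreted signals -0.03 and -0.08. No role had a called member at either dose.

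Between the doses, 30 mg/kg against 10 mg/kg, the median difference of the 28 members was 0.06, beside -0.01 over all genes, and 8 of 28 were lower at 30 mg/kg, beside 54.4% of all genes. By limma 0 members were called, where 0 of 9540 genes (0%) were, and 2 members reached an unadjusted p under 0.05 with higher means at 30 mg/kg, where 2.57% of genes did (5.82% in either direction). The samples of the doses overlapped in all 28, while 0.943% of genes did not overlap. The 2 members with an unadjusted p under 0.05 were Esam, at 1.14-fold (1.04 to 1.24, limma adjusted p = 0.851), and Rspo3, at 1.09-fold (1.01 to 1.17, adjusted p = 0.851). For the 3 defining markers the 95% confidence intervals of the fold between doses were 0.89 to 1.13 for Pecam1, 0.82 to 1.16 for Stab1 and 0.86 to 1.29 for Stab2. Each included equal levels at both doses, and the smallest detectable difference was not computed.

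The members differed between samples of a group. The mean log2 value over the 28 genes was 7.85, 7.67, 7.71, 7.72 and 7.85 at 30 mg/kg, 7.80, 7.67, 7.81, 7.70 and 7.60 at 10 mg/kg, and 7.86, 7.95, 7.82, 7.91 and 7.87 in vehicle. The 5 samples at 10 mg/kg and 3 of 5 at 30 mg/kg lay below every vehicle sample, and samples 1 and 5 at 30 mg/kg reached the vehicle range. Sample 2 at 30 mg/kg was the lowest of its group in 12 of 28 members and sample 5 at 10 mg/kg likewise in 12, whereas 10 mg/kg sample 3 was the lowest in 0. Vehicle sample 1 was the lowest of its group in 11 members and the highest in 8, and vehicle sample 3 was the lowest in 10, so the members did not all move together. The median deviation of the members from their group mean was -0.10 in 30 mg/kg sample 2, where that of all genes was 0.02, and -0.08 in 10 mg/kg sample 5, where that of all genes was -0.01.

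**Figure D3:**
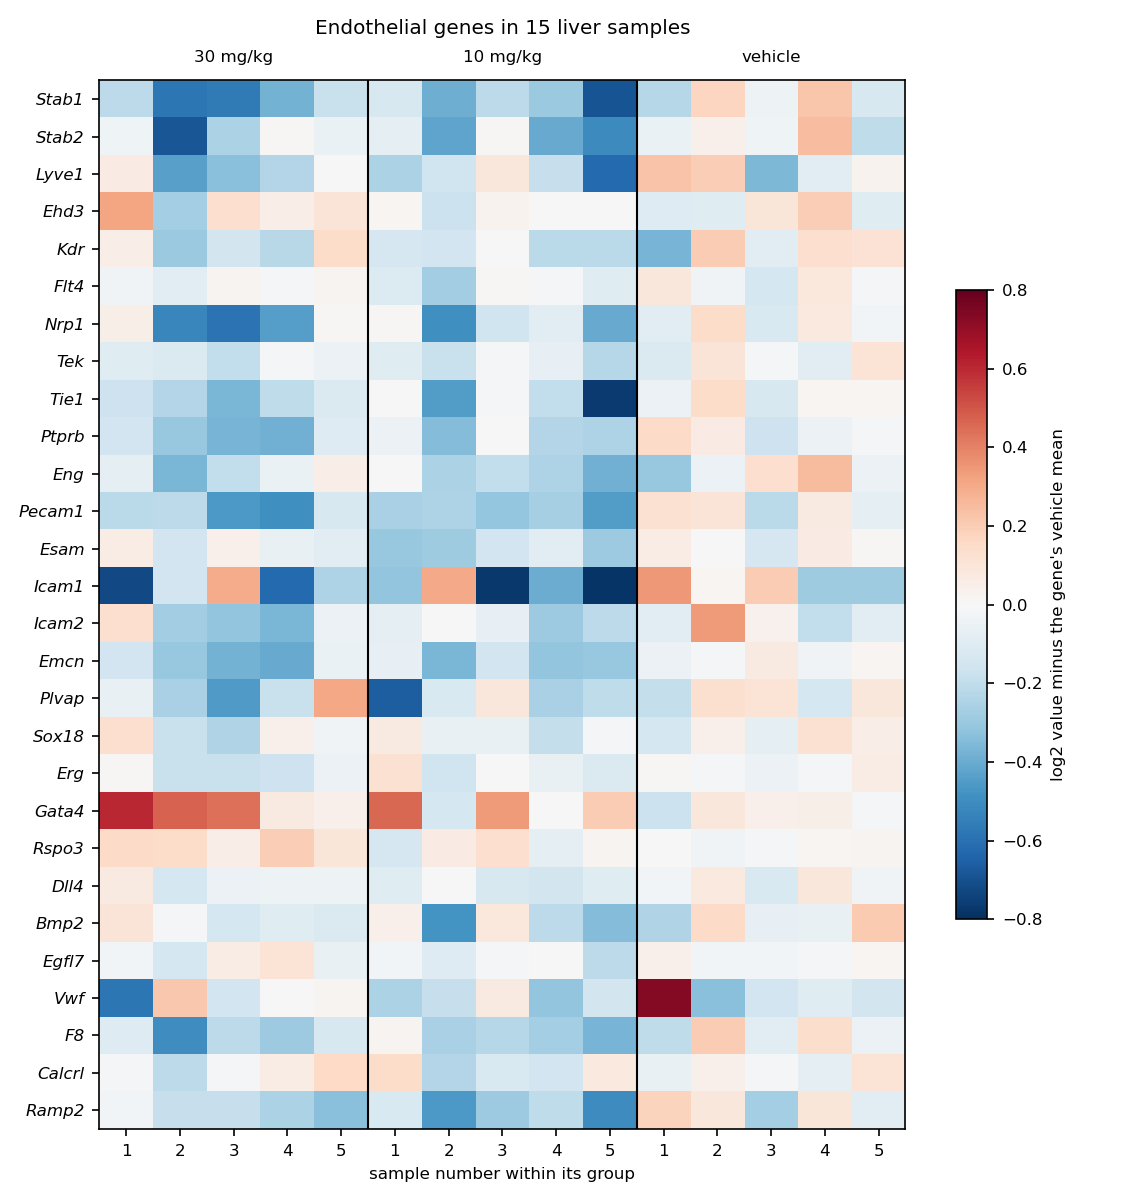
Log2 value minus the gene's vehicle mean (colour) of 28 members (rows) in 15 samples (columns: 30 mg/kg, 10 mg/kg and vehicle). Blue, below the vehicle mean, covers most rows of the treated columns, least in sample 1 at 30 mg/kg. The Gata4 row is red in 3 samples at each dose, and faintly red in the other samples at 30 mg/kg.

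Of the 28 members, 8 had more than 1 probe set past the filter. At 10 mg/kg 0 of the 8 had probe sets of opposite sign, and at 30 mg/kg 3 had, namely Dll4 (-0.04 and 0.05 on the log2 scale), Bmp2 (-0.05 and 0.08) and Egfl7 (-0.01 and 0.11). Both probe sets of Ptprb (-0.26 and -0.17), Nrp1 (-0.30 and -0.14) and Lyve1 (-0.19 and -0.15) were below 0 at 30 mg/kg.

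The 6 dim members lay below the overall median in nearly all samples and can carry background signal. Nos3, the endothelial nitric oxide synthase, had 4.87, 4.98, 5.24, 5.02 and 5.11 at 30 mg/kg, 4.86, 4.65, 5.08, 4.55 and 4.45 at 10 mg/kg, and 5.05, 5.33, 5.36, 5.22 and 5.38 in vehicle. The 10 mg/kg samples lay low, and 1 of them reached just past the lowest vehicle sample. Without a filter, over 14217 genes, Nos3 was at 0.86-fold the vehicle level at 30 mg/kg (0.73 to 1.00, limma adjusted p = 0.321) and at 0.68-fold at 10 mg/kg (0.58 to 0.80, adjusted p = 0.0962).

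Sox17, a SOX factor of arterial endothelium, had 5.28, 5.05, 4.98, 4.83 and 5.35 at 30 mg/kg, 5.26, 5.36, 5.55, 5.40 and 4.95 at 10 mg/kg, and 5.74, 5.50, 5.25, 5.34 and 5.64 in vehicle. At 30 mg/kg 3 samples lay below every vehicle sample and the other two within the vehicle range. It was at 0.76-fold the vehicle level at 30 mg/kg (limma adjusted p without a filter 0.181) and at 0.88-fold at 10 mg/kg (0.601). Its other two probe sets gave -0.04 and 0.06 at 30 mg/kg. Thbd, for thrombomodulin, was at 0.87-fold and 0.85-fold the vehicle level at 30 and 10 mg/kg, Flt1, for a VEGF receptor that acts largely as a decoy, at 1.02-fold and 0.99-fold, and the adhesion gene Mcam at 0.98-fold and 1.00-fold. Cav1, the caveolar coat protein, was at 1.12-fold (0.88 to 1.42) and 1.16-fold (0.91 to 1.47).

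RefSeq promoter sequences on assembly GRCr8 were found for 21 of the 37 members. They are shown for the 4 genes with the smallest p for both doses averaged among members past the filter that are described by sample and had an entry, since ETS factors such as Erg bind a GGAA core in many endothelial genes. Each line gives the 250 bases before the annotated start, 5′ to 3′ on the strand of the gene, and capitals mark AGGAAG or CGGAAG on either strand.
Emcn, chr2:228564289-228564538, plus strand: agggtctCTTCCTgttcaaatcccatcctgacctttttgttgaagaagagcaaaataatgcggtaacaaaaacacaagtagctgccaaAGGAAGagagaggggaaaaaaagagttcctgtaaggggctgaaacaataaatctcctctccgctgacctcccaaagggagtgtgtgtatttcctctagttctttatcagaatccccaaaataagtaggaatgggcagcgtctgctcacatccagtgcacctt
Stab1, chr16:6367360-6367609, minus strand: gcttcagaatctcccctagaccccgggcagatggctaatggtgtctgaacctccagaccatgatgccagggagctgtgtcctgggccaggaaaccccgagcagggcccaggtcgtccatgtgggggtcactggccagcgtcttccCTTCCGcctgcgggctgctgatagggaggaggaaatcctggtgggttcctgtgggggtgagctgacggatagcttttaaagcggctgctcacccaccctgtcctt
Tie1, chr5:137304982-137305231, minus strand: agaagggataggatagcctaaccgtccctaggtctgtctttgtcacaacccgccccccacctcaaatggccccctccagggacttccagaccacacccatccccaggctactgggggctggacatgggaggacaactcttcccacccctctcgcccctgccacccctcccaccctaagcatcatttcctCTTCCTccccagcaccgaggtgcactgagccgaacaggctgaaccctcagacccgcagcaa
Nrp1, chr19:73256307-73256556, plus strand: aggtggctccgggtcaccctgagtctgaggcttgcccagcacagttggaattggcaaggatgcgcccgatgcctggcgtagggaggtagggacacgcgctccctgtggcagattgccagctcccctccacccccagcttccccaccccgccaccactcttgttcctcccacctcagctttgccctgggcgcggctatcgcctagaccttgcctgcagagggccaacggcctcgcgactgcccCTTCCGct

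AGGAAG was in this window in 13 of the 21 members (61.9%), beside 29.4% of 27457 promoters in the table and 29% of the 8027 that belong to genes past the filter. The 21 include Cav1, Clec4g, Flt1, Nos3 and Robo4, which are not past the filter, and all of these but Cav1 had AGGAAG. The shares of members and of genes past the filter thus cover unlike sets, here and in the counts that follow. CGGAAG was in 2 of 21 (9.52%), beside 14.7% and 28.4%. Either form was in 15 of 21 (71.4%), beside 39.8% and 49.1%, with 4 matches in Clec4g, 2 each in Emcn, Eng, Flt1 and Plvap and 0 in Calcrl, Cav1, Ehd3, Icam1, Kdr and Rspo3. No member had both of these forms. Some of all promoters did, since their share with either form is below the sum of the separate shares. Forms for GATA factors and for the TATA box were counted in the same window too. The former, AGATAA, was in 1 of 21 members (4.76%), beside 10.0% of all promoters and 5.67% of those past the filter. The latter, TATAAA, was in 5 of 21 (23.8%), beside 13.1% and 6.52%. All these forms were chosen with the expression results known, and a match is a description of the letters in the window.

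A further 50 endothelial genes were listed, of which 29 passed the filter. Their log2 differences had a median of -0.04 at 30 mg/kg and of -0.08 at 10 mg/kg, and 0 were called by limma. At 30 mg/kg 16 of the 29 were below vehicle in mean, beside 62% of all genes, and at 10 mg/kg 23 were, beside 58.2%. An unadjusted p under 0.05 was reached by 3 with lower and 2 with higher means at 30 mg/kg, and by 3 with lower and 1 with higher means at 10 mg/kg. Over all genes 10.8% reached it with lower means at 30 mg/kg and 8.79% at 10 mg/kg, so the lower counts are near the background. With higher means 5.27% of all genes reached it at 30 mg/kg, and in either direction 13.3% did at 10 mg/kg. The higher ones were Notch4 at both doses and, at 30 mg/kg, Gpihbp1, the lipase anchor of capillaries (0.14). Those with lower means at both doses were Mrc1, the mannose receptor (-0.29 and -0.28 at 30 and 10 mg/kg), Fcgr2b, the Fc receptor of sinusoids (-0.28 and -0.33), and Cd93, a lectin-like surface protein (-0.28 and -0.27). Macrophages express these genes too. Notch4, an endothelial Notch receptor, had values 0.16 and 0.14 above vehicle, and its treated samples lay above all vehicle samples at both doses (limma adjusted p = 0.170 and 0.261). It was the 1 gene of the 29 without overlap at each dose, beside 3.21% of all genes at 30 mg/kg and 2.44% at 10 mg/kg. That count is near the background.

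Of 15 genes for ligands of the member receptors 4 passed the filter, and 0 were called by limma. Vegfb, a ligand of Flt1, had log2 differences of 0.24 at 30 mg/kg and 0.34 at 10 mg/kg (adjusted p = 0.421 and 0.324), and Vegfa, the main ligand of Kdr, of -0.18 and 0.02 (adjusted p = 0.297 and 0.941). Vegfc, the ligand of Flt4, had -0.08 and -0.02, and Tgfb1, for TGF-beta 1, had 0.02 and -0.11.

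Several lists of genes of other non-parenchymal cells also had lower means in the treated livers. Of 11 Kupffer cell and macrophage genes past the filter, 10 were below vehicle in mean at both doses, with medians of -0.34 at 30 mg/kg and -0.39 at 10 mg/kg, and their mean log2 value ran from 8.58 to 9.51 at 30 mg/kg, from 8.65 to 9.25 at 10 mg/kg and from 8.92 to 9.59 in vehicle. An unadjusted p under 0.05 was reached by 2 of them at 30 mg/kg and 6 at 10 mg/kg, all lower, beside 10.8% and 8.79% of all genes with lower means. Of 16 stellate cell and matrix genes, 13 and 16 were below vehicle, with medians of -0.13 and -0.26 and ranges from 7.93 to 8.28, from 7.87 to 8.18 and from 8.14 to 8.30, and 1 at 30 mg/kg and 9 at 10 mg/kg reached an unadjusted p under 0.05, all lower, beside the same shares of all genes. Col4a1, a basement membrane collagen that endothelium makes too, was at 0.83-fold and 0.75-fold the vehicle level (limma adjusted p = 0.17 and 0.074), without overlap with vehicle at either dose. Of the 16 genes, 1 at 30 mg/kg and 2 at 10 mg/kg did not overlap, beside 3.21% and 2.44% of all genes. For 4 erythroid genes 3 and 4 were below vehicle, with medians of -0.29 and -0.40 and ranges from 8.60 to 9.18, from 8.43 to 9.17 and from 8.63 to 9.44. Over all genes 62% were below vehicle in mean at 30 mg/kg and 58.2% at 10 mg/kg. The 1 of 16 stellate cell and matrix genes with an unadjusted p under 0.05 at 30 mg/kg is below the share of all genes.

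Hepatocyte genes had medians near 0. Of 10, 5 were below vehicle at 30 mg/kg and 3 at 10 mg/kg, beside 62% and 58.2% of all genes, with medians of -0.01 and 0.01. Asgr1, an asialoglycoprotein receptor subunit, had differences of -0.11 at 30 mg/kg and -0.21 at 10 mg/kg (limma adjusted p = 0.386 and 0.196), without overlap with vehicle at 10 mg/kg. It was the 1 gene of the 10 without overlap at that dose, beside 2.44% of all genes. Cps1, a urea cycle enzyme, had 0.11 and 0.12 (limma adjusted p = 0.251 and 0.282). Alb, for albumin, averaged 15.36 in vehicle, near the highest value on any array, 15.38, where an array can show little change. Ttr, Serpina1 and Apoa1 averaged 14.83, 14.80 and 14.49 in vehicle, close to that value too. The medians of the hepatocyte list can therefore understate change. Smooth muscle and pericyte genes (5 past the filter) had medians of 0.07 and -0.06, platelet genes (3) -0.14 and -0.32, lymphocyte and neutrophil genes (3) 0.01 and -0.02, and the 1 cholangiocyte gene past the filter 0.07 and 0.04. No member of these lists was called by limma. Of the genes on the array, 3 of 9 lymphocyte and neutrophil genes and 1 of 4 cholangiocyte genes passed the filter. The lowest value on any array was 2.91, and values can carry background signal, so a value above 0 does not by itself show expression. The part of the cell types of these lists in the endothelial values was not tested. As a sign of RNA quality, the log2 gap between the 3′ and 5′ probe sets of Gapdh was 0.37 ± 0.09 at 30 mg/kg, 0.34 ± 0.02 at 10 mg/kg and 0.39 ± 0.03 in vehicle (n = 5 each, ± SD), that of hexokinase was 1.80 ± 0.19, 1.93 ± 0.06 and 1.83 ± 0.05, and that of beta-actin 1.72 ± 0.12, 1.73 ± 0.03 and 1.74 ± 0.07 in the same groups. The hexokinase gap was thus larger at 10 mg/kg by more than its SD in vehicle. The Gapdh gap was smaller by more than its SD in vehicle, and the beta-actin gap differed by less than its SD. The part of RNA quality in the differences was not tested.

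**Figure D4:**
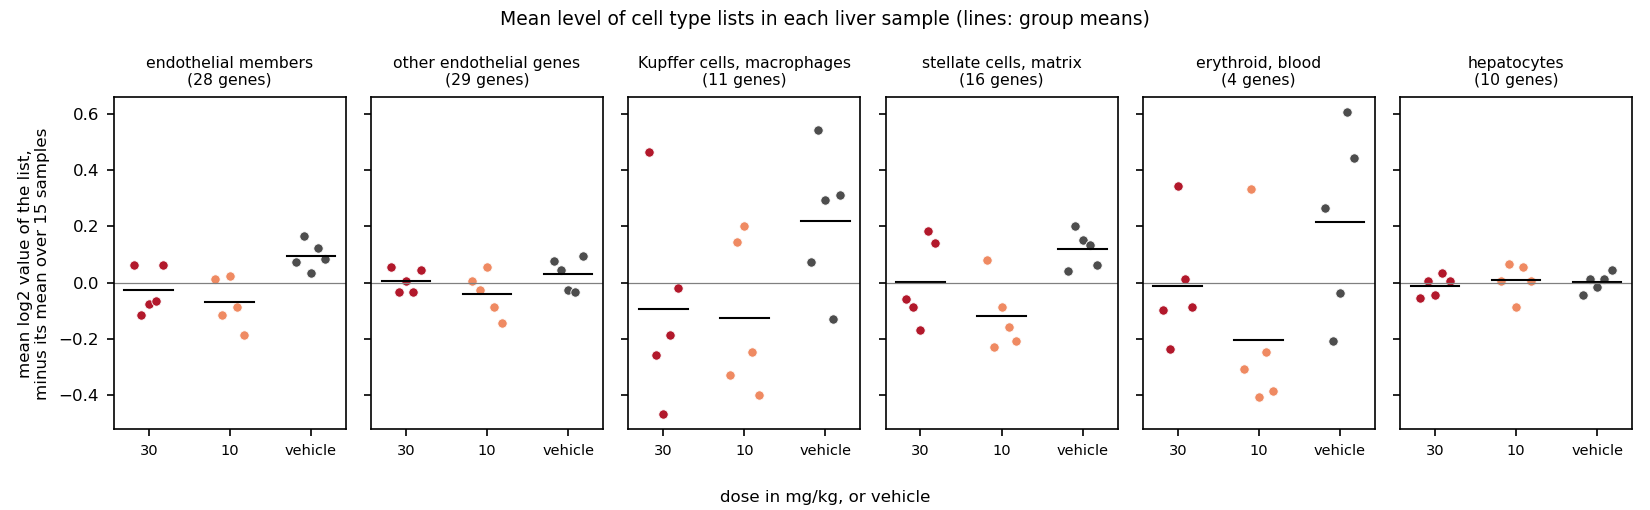
Mean log2 value of 6 gene lists in each sample, minus the mean of the list over all 15 samples (y axis), for 30 mg/kg, 10 mg/kg and vehicle (points; lines are group means). Endothelial, macrophage, stellate and erythroid lists have their highest group mean in vehicle, with overlap of samples in most, and hepatocyte genes lie near 0 in all groups.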

How the data were processed

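The deposited table holds log2 values per probe set for 15 arrays, as the authors gave them, with array medians between 6.08 and 6.12. Tools listed per the submitters' processing notes are RMA, GCRMA (2.12.1) and limma (2.14.7). Which of them gave the log2 values is not stated there. Values brought to a common level between arrays hide a change shared by most genes. Background signal in the values can understate changes of dim genes. No scan date was used.

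Of 31099 probe sets 57 were controls, 20826 carried 1 symbol, 436 several and 9780 none. Symbols were updated through gene identifiers of the RefSeq table (GRCr8, names only), which matched 20812. A probe set was kept if at least 5 of its 15 values exceeded 6.10, the median of all values, and the brightest kept one stood for each of 9540 genes. limma 3.58.1 in R 4.3.3 fitted 3 group means, with eBayes and Benjamini-Hochberg adjustment over all 9540. The procedure was also tested on simulated data in which genes varied independently, and no result here rests on that test. Samples were grouped by title. Members, lists and tests were chosen with earlier results of these data known. Members are given by sample where they are a defining marker, had an unadjusted p under 0.05 at either dose, or did not overlap with vehicle at either dose. From other lists, named genes are among the 4 with the smallest p for both doses. The exceptions are Gpihbp1, Alb, Serpina1 and Apoa1, which were named after their values were seen. Precision is limited by how many arrays there are.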

Additional observations from a re-analysis of the deposited data

Results flagged for a closer look

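Over 34 members and 3 groups, 102 groups of 5 values were examined for a sample far from the others, and 3 had one, where chance gives about 1 in 20. Ehd3 had 7.38 in 10 mg/kg sample 2, while the other samples of that group lay between 7.56 and 7.58. Mcam, which was below the filter, had 5.41 in 10 mg/kg sample 5, against 5.71 to 5.80 in the others. Vwf had 7.36 in vehicle sample 1, against 6.29 to 6.53 in the others.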

How the results depend on the processing

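Over 24 alternatives, 9 in processing and 15 that leave out 1 sample each, limma called 0 members in every comparison run (a fit of only the groups compared cannot be made for both doses), and the median difference of the members kept its sign: -0.18 to -0.08 at 30 mg/kg, -0.22 to -0.15 at 10 mg/kg, -0.18 to -0.12 for both doses and 0.02 to 0.09 between doses. Members with an unadjusted p under 0.05 numbered 6 to 10, 5 to 13, 8 to 12 and 1 to 3 in the same comparisons. Those with lower means numbered 4 to 9, 5 to 13, 7 to 12 and 0. Over all genes 1163 to 2275, 984 to 1603, 1388 to 2244 and 353 to 900 reached that threshold. The member counts are out of 28, except 34 with no filter, 23 with the stricter filter and 36 with every probe set. The number of genes tested changed with these settings too. Of 849 values of the members given by sample, 843 kept their direction and stayed uncalled. The exceptions were near 0: Rspo3 at 10 mg/kg ran from -0.0318 (without 10 mg/kg sample 3) to 0.0359 (without 10 mg/kg sample 1) with 1 sample left out, and was below 0 in 5 such fits, and Esam at 30 mg/kg was 0.0024 after quantile normalisation. The cause was not tested. Rspo3 had no value under the stricter filter.

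Counts over all genes were less stable. At 10 mg/kg 10 genes were called (6 higher), 3 with no filter (1603 at an unadjusted p under 0.05) and 0 with the replicate number as a block (1212), with 7 of 10 higher after quantile normalisation. At 30 mg/kg 1 was called with every probe set as a feature in place of 0. For both doses 14 were called (8 higher), 3 with the replicate block, 20 (14 higher) after quantile normalisation and 19 (9 higher) with arrays centred on their median. With 1 sample left out the counts ran from 0 to 5 at 30 mg/kg (5 without vehicle sample 5), from 0 to 26 at 10 mg/kg (26 without 30 mg/kg sample 2), and from 0 (without 10 mg/kg sample 3) to 85 (without vehicle sample 5) for both doses, and were 0 between doses. The replicate block changed no call of a member; deviations of same-numbered samples from their group means correlated between -0.071 and 0.195, over 0.1 in 2 of 15 pairs, and so the samples were not taken as paired.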
